A study of Arabidopsis thaliana with 2 samples.

Results

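The first arm of Arabidopsis chromosome 5 was taken as positions 1 to 10000000 of the TAIR10 build, ending 2 Mb before a centromere placed at 12 Mb. Of the 40612 single-nucleotide polymorphisms (SNPs) in the authors' deposited list, 4817 lay in this arm, which is 11.9% of the list and 41.6% of the 11578 SNPs of chromosome 5. The arm is 10 Mb long, out of 119 Mb up to the last listed SNP of each chromosome. On chromosome 5 that last SNP stood at 26927726. Seedling DNA was sequenced from a pool with the potent phenotype and from a pool without it, 1 pool each, both raised from the fifth cross of potent to the ecotype Landsberg erecta (Ler). The dominant mutation potent came from a Col-0 line with DR5::Luciferase, pWOX5::ER-YFP and pSCR::ER-GFP reporters, treated with 50 mM ethyl methanesulfonate (EMS) for 12 hours, and was crossed 6 times to that line and then 5 times to Ler. The list names neither pool, so no value could be set beside one of the other pool and no test between phenotypes was possible. It gives no allele or read depth. A stretch with few listed SNPs can therefore be like the reference, be heterozygous or have been uncallable, and these cannot be told apart here.

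Mapping by sequencing rests on natural differences between 2 ecotypes. The TAIR10 reference is Col-0, and a plant that inherited a segment from Ler carries, in that segment, the many SNPs by which Ler differs from Col-0. Such differences are known to be fewer in genes than between them, and nearby variants are inherited together.

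Listed SNPs were far from evenly spread in the arm. There were 481.7 per Mb over the whole of it (95% Poisson interval 468 to 495), with 704 per Mb (681 to 728) in its last 5 Mb and 259 per Mb (245 to 274) in its first 5 Mb, a ratio of 2.72. The last 5 Mb held 3521 of the 4817 SNPs (73.1%), and the middle SNP of the arm stood at position 7029821. These intervals, like all those given here, cover counting error only, and linked SNPs make them too narrow.

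The profile had a modest start, a trough and a long climb. From the chromosome start to the end of the arm, the 10 windows of 1 Mb held 356, 178, 147, 244, 371, 584, 495, 736, 743 and 963 SNPs. The trough lay between 1 and 4 Mb, where 569 SNPs (11.8% of those in the arm) gave 190 per Mb. The climb was broken once at this scale, between 6 and 7 Mb. That window held 495 per Mb (452 to 541), against 584 (538 to 633) between 5 and 6 Mb and 736 (684 to 791) between 7 and 8 Mb, and its interval overlapped that of 5 to 6 Mb only.

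**Figure D1:**
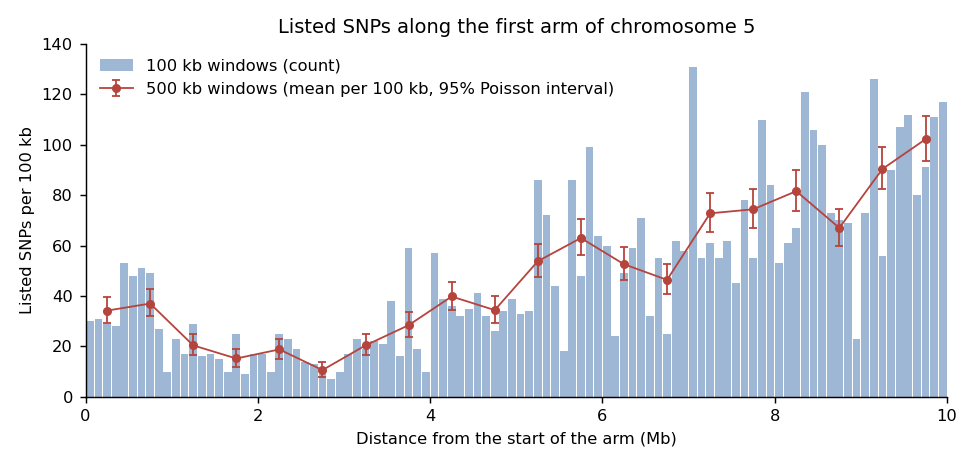
Listed SNPs per 100 kb (vertical axis) by distance from the start of the arm in Mb (horizontal axis). Bars are counts in 100 kb windows, and points are 500 kb windows as a mean per 100 kb with 95% Poisson intervals; the lowest 500 kb window holds 53 SNPs and the highest 511.

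The densest 500 kb window was the last, from 9500001 to 10000000. It held 511 SNPs, or 1022 per Mb (935 to 1115). The least dense ran from 2500001 to 3000000 and held 53, or 106 per Mb (79.4 to 139), so the densest held 9.64 times as many. The 2 windows were not alone at either end: the 2 next densest windows held 452 and 408 SNPs, starting at 9000001 and 8000001, and the 2 next least dense held 76 and 94, starting at 1500001 and 2000001. The end of the arm was no edge in the data, since the next 500 kb beyond it held 442 SNPs. The last SNP inside stood at 9999829 and the nearest one outside at 10000098.

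At a finer scale the order of the dense windows changed. Among the 100 windows of 100 kb, the median was 40 SNPs. The highest count, 131, fell between 7000001 and 7100000, well before the end of the arm, and the lowest, 7, between 2800001 and 2900000. All 10 windows with 100 or more SNPs lay in the last 5 Mb, and 21 of the 22 windows with fewer than 20 lay in the first 5 Mb. The exception held 18 SNPs, started at 5500001 and stood between windows with 44 and 86. Neighbouring windows resembled each other only in part (Spearman's rho 0.688 and Pearson's r 0.647 over 99 pairs of windows, which share 1 list and its linkage).

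The peak at 7.0 Mb covered the gene of an auxin response factor. Its 10 windows of 10 kb held, in order along the chromosome, 5, 10, 20, 21, 23, 15, 21, 9, 3 and 4 SNPs, so 100 of the 131 stood in a run of 50 kb from 7020001 to 7070000. ARF7 (AT5G20730, NPH4 in RefSeq), a transcription factor needed for lateral root initiation, reached into the start of that run. SUS1 (AT5G20830), a sucrose synthase, and SAC4 (AT5G20840), named as a suppressor of actin gene, lay inside it. They held 12, 11 and 15 SNPs, and those of ARF7 include SNPs before the run, the first at 7016469. Much of the peak lay elsewhere. Of its 131 SNPs, 58 lay in protein-coding genes, 46 outside every annotated gene and the others in pseudogenes or RNA genes. In the 10 kb from 7030001, 0 of 21 SNPs lay in protein-coding genes and 5 outside every annotated gene.

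In the least dense 100 kb window, the 10 kb counts were 1, 0, 2, 1, 2, 0, 0, 0, 0 and 1. The flavonol synthase gene FLS1 (AT5G08640) at its near edge held 1 SNP, at position 2803990. Genes inside its emptier part included ATAF2 (AT5G08790), a NAC transcription factor, the amino acid permease gene AAP2 (AT5G09220) and SRT2 (AT5G09230), a sirtuin gene, which all lay in a gap described below. These 3 were chosen after their values were seen.

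SNPs were clumped at short range. Distances between neighbours in the arm had a median of 708.5 bp and a mean of 2074 bp. The lower quartile was 143 bp and the upper quartile 2202 bp. Of all distances, 1043 (21.7%) were 100 bp or less and 374 (7.77%) were 10 bp or less. The shortest possible distance, neighbouring bases, occurred 90 times, in 86 pairs and 2 runs of 3 bases. A neighbour within 100 bp on either side was listed for 1823 SNPs (37.8%). Short-range clumping was much the same over the whole list, where 37.9% of SNPs had such a neighbour. There, 21.7% of distances were 100 bp or less and the median was 689 bp.

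**Figure D2:**
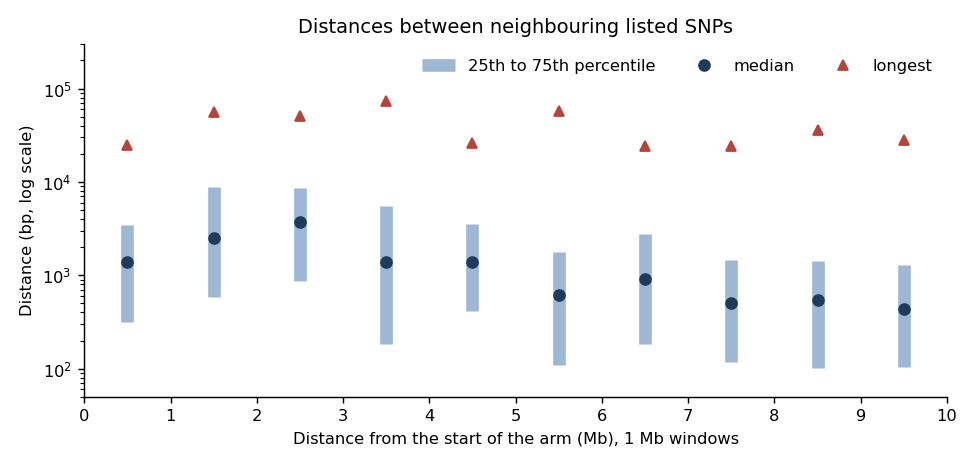
Distance between neighbouring listed SNPs in bp (vertical axis, log scale) in the 10 windows of 1 Mb along the arm (horizontal axis). Bars span the quartiles, dots are medians and triangles the longest distance inside each window; medians lie between 441 bp, in the last Mb, and 3704 bp, between 2 and 3 Mb.

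Counts were uneven at the scale of 10 kb too. In windows of 10 kb, counts averaged 4.82 and reached 24, and their variance was 4.67 times their mean, where an even random spread gives about 1. Over the whole list, variance over mean was higher, at 6.94. That ratio was 3.95 in the last 5 Mb and 2.80 in the first 5 Mb, so counts were uneven within each part as well as between them. By Mb, it ran from 1.53 between 2 and 3 Mb to 4.43 between 8 and 9 Mb, and it did not follow density throughout. The densest Mb, from 9 to 10 Mb, had 2.85, while the sparser Mb from 3 to 4 Mb had 3.65. The share of SNPs with a neighbour within 100 bp was 41.3% in the last 5 Mb and 28.4% in the first 5 Mb. Denser SNPs have more close neighbours by themselves, and density was 704 and 259 per Mb in these parts. Clumping apart from density was not tested. Of the 1000 windows of 10 kb, 138 (13.8%) held no listed SNP, against 36.3% of such windows over the whole list. They were 36 of 500 in the last 5 Mb and 102 of 500 in the first 5 Mb.

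Joining neighbours that lay within 1000 bp of each other gave 2044 clumps, with 2.36 SNPs each on average. Single SNPs made up 1051 of them (51.4%) but held 21.8% of all SNPs, whereas the 43 clumps of 10 or more SNPs (2.10%) held 11.6%. Over the whole list, clumps held 2.38 SNPs on average and 53.4% were single SNPs. Between 9 and 10 Mb there were 294 clumps of 3.28 SNPs on average, and between 2 and 3 Mb 107 clumps of 1.37, so both their number (2.75 times) and their size (2.38 times) differed. Part of this is built into the joining rule, since closer SNPs are joined more often.

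**Figure D3:**
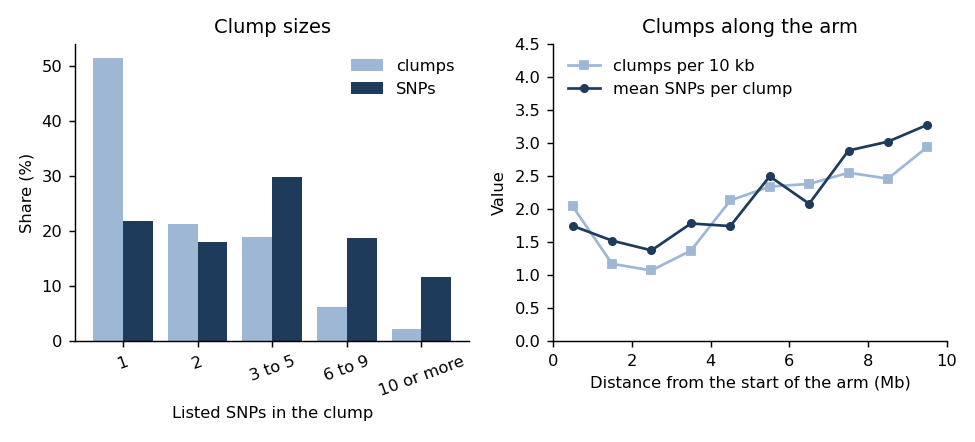
On the left, the share in percent (vertical axis) of clumps and of SNPs by the number of SNPs in the clump (horizontal axis), for neighbours joined within 1000 bp. On the right, clumps per 10 kb and mean SNPs per clump in 1 Mb windows by distance from the start of the arm; both are lowest between 2 and 3 Mb, at 1.07 clumps per 10 kb and 1.37 SNPs per clump.

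The 5 largest clumps all lay between 7 and 9 Mb. The largest had 24 SNPs over 6463 bp, from 8807757 to 8814219, with 2 of them in PLDALPHA3 (AT5G25370), a phospholipase D, and 22 in no protein-coding gene. In the next, from 8405311 to 8413066, 19 SNPs were listed, 5 of them in AT5G24580. By contrast the third, with 18 SNPs from 8337751 to 8343411, had 15 inside protein-coding genes, 13 of these in AT5G24430 and 2 in PGL5 (AT5G24420). The most tightly packed of the 5 largest, from 8762202 to 8765464, held 17 SNPs at 5.21 per kb. In the trough between 1 and 4 Mb, no clump held more than 11 within its 1 Mb window.

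A very tight group stood elsewhere, in the first Mb. Within 300 bp, the highest count in the arm was 8. Its first occurrence along the chromosome was at positions 503162, 503182, 503263, 503270, 503298, 503311, 503340 and 503353. These span 192 bp between annotated genes. Ties went to the first group, and whether other groups also reached 8 was not recorded.

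Of the 5 longest gaps, 4 lay in the trough between 1 and 4 Mb and 1 beyond 5 Mb. The longest distance without a listed SNP was 72.9 kb, from 3914246 to 3987166. In the whole list, 153 distances were longer. It held 23 protein-coding genes, among them TUB6 (AT5G12250), a beta-tubulin, CPK17 (AT5G12180), a calcium-dependent protein kinase, MED19A (AT5G12230), a subunit of the Mediator complex, and CLE22 (AT5G12235), a gene for a CLE signalling peptide. Genes covered 77.6% of its bases, so it was not a stretch poor in annotated genes. LRP1 (AT5G12330), named for its expression in lateral root primordia, began 209 bp beyond the SNP that closes this gap and held 2 SNPs, at 3989520 and 3989685.

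The next longest gaps were 57.5 kb, from 5073133 to 5130625, 56.2 kb, from 1816568 to 1872781, 51.3 kb, from 2158181 to 2209441, and 49.3 kb, from 2896854 to 2946106. They held 15, 14, 14 and 12 protein-coding genes. The gap from 1816568 held 2 of the genes listed below, LBD33 (AT5G06080), of the LOB-domain family, and MYB33 (AT5G06100), a MYB factor of gibberellin responses, together with RBE (AT5G06070), a zinc-finger regulator of petal development. The gap from 2158181 included WRKY26 (AT5G07100) and the gap from 2896854 the potassium transporter gene KUP7 (AT5G09400). A further gap of 48.0 kb, from 2848840, ended at 2896854, so that 1 listed SNP, in AT5G09340, stood alone in 97.3 kb. Of the 196 distances over 10 kb, 142 began in the first 5 Mb, as did 3 of the 4 over 50 kb.

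Most of the arm is genic, yet SNPs were thinner inside genes than between them. Protein-coding genes covered 66.9% of its bases and held 2458 SNPs (51.0%, exact Clopper-Pearson 95% interval 49.6 to 52.4). That is 367 per Mb of gene (353 to 382), against 733 per Mb (703 to 765) outside every annotated gene, a ratio of 0.501. Pseudogenes held 123 SNPs at 546 per Mb (454 to 652) and lncRNA genes 44 at 563 per Mb (409 to 756), values between those of the other classes, although the lncRNA interval overlapped that of sequence outside genes. Over the whole list the ratio was 0.660, with 280 per Mb in protein-coding genes and 424 outside every gene.

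The same order held in every Mb. In each of the 10 windows of 1 Mb, density inside protein-coding genes was below that outside genes, and the 2 intervals did not overlap. The ratio ran from 0.342, between 3 and 4 Mb, to 0.693, between 8 and 9 Mb. Between 9 and 10 Mb, genes held 764 SNPs per Mb and the sequence outside genes 1207. Between 2 and 3 Mb, they held 109 and 261. The first of these windows thus held 6.99 times the density of the second inside genes and 4.63 times outside them.

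**Figure D4:**
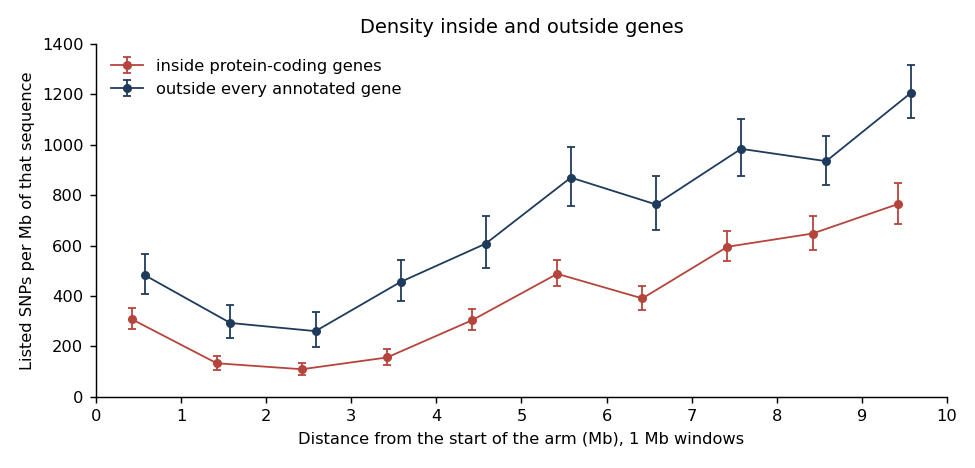
Listed SNPs per Mb of sequence (vertical axis) inside protein-coding genes and outside every annotated gene, in 1 Mb windows by distance from the start of the arm (horizontal axis). Points carry 95% Poisson intervals; the line for genes lies below the other in all 10 windows.

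Gene cover and SNP density moved in opposite directions along the arm. Protein-coding genes covered 46.2% of the last Mb and 75.9% of the Mb from 2 to 3 Mb. Over the 20 windows of 500 kb, Spearman's rho between SNP count and gene cover was -0.642, a description of linked windows. The part of gene cover in the climb was not tested.

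Against other stretches, the arm stood between the dense and the sparse. It was denser than the whole list, which carried 341 SNPs per Mb (338 to 344). The next 8 Mb of chromosome 5, up to 18 Mb, carried 801 per Mb (782 to 821) and the rest of that chromosome 39.2 (35.2 to 43.5). The first 10 Mb of chromosome 3, the same length, carried 711 (694 to 727), and positions 6 to 10 Mb of chromosome 4 carried 467 (446 to 489), an interval that overlaps that of the arm. Variance over mean in 10 kb windows was 4.67 in the arm, 5.84 from 10 to 18 Mb, 1.51 from 18 Mb on, 5.73 in the stretch of chromosome 3 and 2.77 in that of chromosome 4. The ratio inside over outside genes was 0.501 in the arm, 0.866 from 10 to 18 Mb, 0.438 from 18 Mb on, 0.571 on chromosome 3 and 0.560 on chromosome 4.

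Among the 2701 protein-coding genes inside the arm, 1098 (40.7%) held at least 1 listed SNP, against 29.2% of all 27432 in the genome. In the last 5 Mb they were 667 of 1251 (53.3%) and in the first 5 Mb 431 of 1449 (29.7%). One SNP was listed in 539 genes, 2 in 250 and 10 or more in 13. Genes of 3000 to 4999 bp held a SNP in 56.2% of cases and genes under 1000 bp in 18.2%, while SNPs per kb were 0.397 and 0.463. The 197 genes of 5000 bp or more held a SNP in 55.3% of cases and had 0.256 SNPs per kb, the lowest of the 5 length classes.

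Genes with the most SNPs were mostly in the last 5 Mb. SAC4 had 15, TPR16 (AT5G12430), named for tetratricopeptide repeats, had 14, AT5G24430 had 13, and ARF7, AT5G16280 and AT5G23490 had 12 each. VAR3 (AT5G17790), named for a variegated leaf mutant, SUS1, AT5G24760 and AT5G26180 had 11 each. Only TPR16 among these 10 lay in the first 5 Mb. Per kb, among genes of at least 1000 bp, AT5G23170 was highest with 7 SNPs, or 4.79 per kb, followed by AT5G27890 with 4.38 and AT5G24990 with 4.28. ECR1 (AT5G19180), a subunit of the enzyme that activates the ubiquitin-like protein RUB, had 10 SNPs, or 3.59 per kb, and VAR3 had 3.56.

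Auxin and lateral root genes of the arm were uneven. Of 13, 6 held a listed SNP (46.2%), with a median of 0 and 27 SNPs in all, against 40.7% and a median of 0 for all genes of the arm. ARF7 alone held 12 of the 27, at 7016469, 7016474, 7016884, 7017811, 7017829, 7019255, 7020946, 7021221, 7021222, 7021257, 7021427 and 7022088. These ran through the 5735 bp of the gene and included 1 pair of neighbouring bases. WOX12, a homeobox gene of root regeneration, had 5, the auxin influx carrier gene LAX1 4, PIN5, an auxin transporter of the endoplasmic reticulum, 3, LRP1 2 and PLT3 (AIL6 in RefSeq), an AP2-domain factor of the root meristem, 1.

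The other 7 had none, in different surroundings. IAA28, a repressor of the Aux/IAA family, and GATA23, a transcription factor of lateral root founder cells, had listed SNPs 81 and 85 bp away, and 16 and 33 SNPs within 10 kb on either side. PIN8 had one 81 bp away. LBD33, in the gap, had its nearest 14.1 kb away and none within 10 kb. YUC6, an auxin biosynthesis enzyme gene, PUCHI, an AP2-type factor of the lateral root primordium, and WOX7 had their nearest SNPs 2.12, 4.01 and 1.34 kb away.

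**Figure D5:**
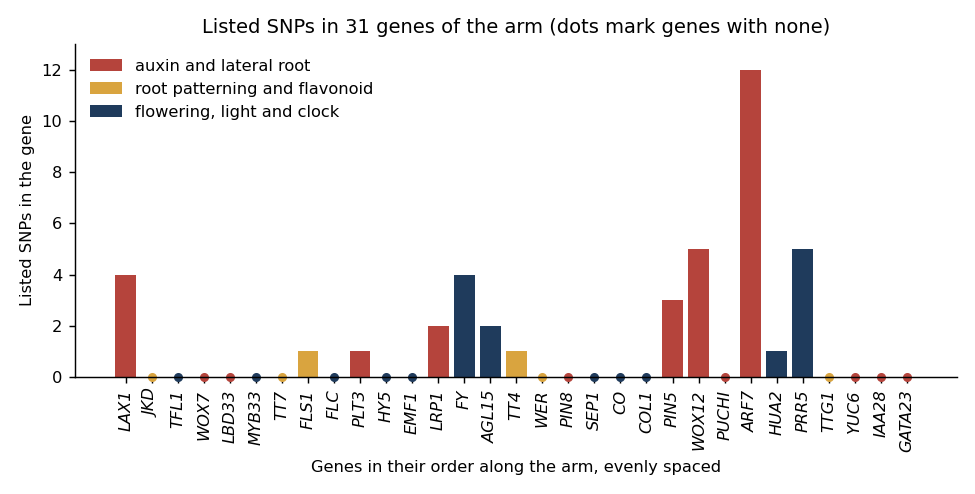
Listed SNPs in each of 31 genes (vertical axis), in their order along the arm and evenly spaced (horizontal axis), coloured by list, with dots for genes at 0. ARF7 stands highest with 12, and 19 genes have none.

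Of 6 root patterning and flavonoid genes, 2 held a listed SNP (33.3%), with a median of 0, beside 40.7% and a median of 0 for all genes of the arm. TT4, the chalcone synthase gene, and FLS1 had 1 SNP each, at 4488739 and 2803990. JKD, a zinc-finger factor of root radial pattern, WER, a MYB factor of root epidermis fate (MYB66 in RefSeq), TTG1, a WD40 partner of such factors, and TT7, a flavonoid hydroxylase gene, had none. TT7 lay in a gap of 38.8 kb, from 2530365 to 2569139.

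Flowering, light and clock genes held SNPs in 4 of 12 (33.3%), with a median of 0, beside the same 40.7% and median of 0. PRR5, a clock component, had 5, FY, a regulator of flowering through RNA processing, 4, the MADS-box gene AGL15 2, and HUA2, a regulator of flowering, 1, at 7790312. HUA2 is 7249 bp long, and 18 SNPs lay within 10 kb on either side of it. FLC, the floral repressor, had none in 6067 bp and 1 listed SNP 200 bp away. Its Ler allele is known to carry a transposable element in an intron, a difference that a list of SNPs does not show. CO, COL1 and SEP1, which lie close together, also had none, as did TFL1, HY5, EMF1 and MYB33. SEP1 had 19 listed SNPs in the 10 kb on either side. Since no allele is given, none of these SNPs can be assigned to the ecotypes or to EMS.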

How the data were processed

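Per the labels' protocols, genomic DNA of 2 seedling pools was read by Hiseq2000 sequencing. The authors deposited 1 list of SNP positions, described by its title as homozygous, with a chromosome number and a position per SNP, per the file headers. The title also carries the letters MT, which the labels do not define, so the pool or pools behind the list are not known. Per the submitters' processing notes the genome build is TAIR10, and per the design text the SNPtrack pipeline found the SNPs. Which aligner, thresholds and criterion for homozygous sites were used is not given in the sources used here, and the read depth is unknown. In the column pair of chromosome 5, 0 position cells were unreadable, and 5 unreadable cells of other pairs were left out.

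SNPs were counted in windows that start at position 1, with exact Poisson 95% intervals for counts and exact Clopper-Pearson intervals for shares. Genes came from RefSeq for TAIR10.1, whose nuclear sequence is that of TAIR10. The share of SNPs in protein-coding genes was 51.0% in place and 61.0% to 62.5% after shifts of 3000 or 10000 bp. All 31 list genes matched by locus, and no gene coordinates are printed. Each base was put in 1 class, protein-coding genes taking precedence. A rule set which genes could be named. It allowed all list members, the 10 with the most SNPs and the 10 densest of at least 1000 bp. It also allowed genes in or next to the 5 longest gaps or in the 5 largest clumps, and the top member of some families. Of the densest genes and of those in gaps and clumps only some are named, and the rule does not say which. ATAF2, AAP2, SRT2, MYB56 and TT16 fall outside the rule and were chosen after their values were seen. The arm, lists and rule were chosen with earlier results of these data known. No reference sequence, strand, exon or product table was used here, so base context, codon position, coding sequence alone and upstream flanks were not analysed. Window, gap, clump and gene counts were tested on 20 simulated lists. Whether the least dense window was found was recorded there, but finding it was not required to pass. Python 3.11.15, NumPy 2.4.6, pandas 2.3.3, SciPy 1.17.1 and Matplotlib 3.10.9 were used.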

Additional observations from a re-analysis of the deposited data

How the results depend on the processing

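No paired analysis was possible because there is 1 list, which names neither pool, with no replicate. Without alleles or depth, no filter on quality could be tried, and alternatives that need sequence, strand or exons were not run. Of 47 alternatives, 8 were chosen after seeing the data (flanks on both sides, both kinds of thinning for the ratio of genes to other sequence and of the last to the first 5 Mb, and those for list members), and 10 stayed within the counting interval, or within 1.5 times where there is none. Moving the end of the arm to 9, 11 or 12 Mb gave 428, 533 and 541.5 SNPs per Mb, and the first and second of these gave median distances of 819 and 627.5 bp. Thinning to at most 1 SNP per 1000 bp left 241 per Mb, and per 100 bp 382 per Mb with a median distance of 1134 bp. The densest window reached 922 per Mb with windows shifted by 250 kb, 1310 with 100 kb windows, where it moved to 7000001, and 414 after thinning to 1000 bp. The least dense held 148 per Mb with shifted windows, where it moved to 1750001, 70 per Mb with 100 kb and 147 with 1000 kb windows. Their ratio was then 6.23 shifted, 18.7 with 100 kb, 6.55 with 1000 kb and 5.05 thinned. Variance over mean was 1.91 in 1 kb, 20.7 in 100 kb and 74.4 in 500 kb windows, and 1.24 in 10 kb windows after thinning, a step that by construction spaces SNPs out. Leaving out 30 SNPs with none within 10 kb lengthened the longest gap to 142 kb, from 3845509 to 3987166, and leaving out SNPs can only lengthen a gap. The share with a close neighbour was 31.7% within 50 bp, 47.4% within 200 bp and 78.2% within 1000 bp. The largest clump held 15 SNPs when joined within 500 bp (from 9904426), 57 within 2000 bp (from 8385997) and 124 within 5000 bp (from 7005128 to 7079181, around ARF7). The share of SNPs in protein-coding genes was 38.1% for genes that overlap no other, 54.8% after thinning and 82.7% with 1000 bp on both sides. The first and last of these shares use sequence that covers less or more of the arm. The share of bases it covers was not computed, so they give no density. Density in genes over density outside was 0.583 after thinning to 1000 bp. Genes with at least 2 SNPs were 20.7%. With the flanks, 21 of 31 list members (67.7%) held a SNP, beside 64.9% of all genes of the arm. The last 5 Mb held 1.92 and 2.49 times the SNPs of the first 5 Mb after thinning to 1000 and 100 bp. In every alternative with windows, the densest lay in the last 5 Mb and the least dense in the first 5 Mb.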

Other observations

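Gene families were grouped by the words of their RefSeq names. Of all protein-coding genes of the arm, 40.7% held a listed SNP. Of 22 genes named as cytochrome P450, oxidative enzymes of plant metabolism, 10 held a SNP, with CYP81K1 (AT5G10610) highest at 5. Of 16 MYB-domain genes 7 did, led by MYB56 with 4, and of 16 genes named AGAMOUS-like 7 did, led by TT16, a MADS-box gene of the seed coat, with 4. NAC-domain genes did in 5 of 14, receptor kinases in 4 of 9, heat shock genes in 2 of 6, expansins in 1 of 2 and ribosomal protein genes in 3 of 4, with a median of 1.5 SNPs. Every family of at least 6 genes named here had a median of 0 SNPs, as had all genes of the arm. Most genes carry no family name in this table, so disease resistance, F-box and pentatricopeptide genes, with 1, 1 and 0 members found, could not be described.

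Among RNA genes, a SNP was listed in 1 of 55 tRNA genes, 1 of 26 snoRNA genes, 0 of 10 snRNA genes and 4 of 33 miRNA genes, against 40.7% of protein-coding genes. These counts are not per length. Per Mb, RNA genes other than lncRNA genes held 467 SNPs (95% Poisson interval 293 to 708), against 367 (353 to 382) in protein-coding genes, and the intervals overlapped. This density does not describe the kinds named above, which held 1, 1, 0 and 4 SNPs. Genes labelled misc_RNA held 19, in 13 of 40 genes, and those labelled ncRNA 4, in 2 of 14, counting any SNPs shared with overlapping genes. No density was computed for the named kinds alone.

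Outside genes, density was lowest close to them. Sequence within 250 bp of a protein-coding gene held 642 SNPs per Mb (95% Poisson interval 589 to 698), and sequence from 251 to 500 bp away held 804 (730 to 883). From 501 to 1000 bp it was 777 (711 to 848), from 1001 to 2000 bp 699 (631 to 771), from 2001 to 5000 bp 821 (725 to 926) and beyond that 765 (541 to 1050). The interval of the nearest class lay apart from those of 251 to 500, 501 to 1000 and 2001 to 5000 bp, and overlapped those of the other classes. These classes were not matched for their place in the arm. They were chosen after the positions had been examined.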
